A study of Mus musculus with 24 samples.

Results

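Nfkb1, Nfkb2, Rela, Relb, Nfkbia, Bcl3, Birc3, Icam1 and Tnfaip2 are 9 genes of the NF-kappa-B pathway in mouse, named by symbol, though with earlier results of these data known. They are 9 of the 31062 features in each count table, and all 9 passed the filter on low counts that left 14622 genes for testing. They were followed across 24 poly-A RNA libraries made from ID8 p53-/- cells. ID8 is a cancer line that arose from ovarian surface epithelium of the mouse, and this form of it lacks p53 in every group. A line labelled Ifngr1-KO, edited at the gene for the receptor chain that binds interferon-gamma (IFN-gamma), was set beside a control line labelled sgNTC. Each line was kept for 48 hours in ultra-low attachment (ULA) plates, where cells float, or in regular plates, where they adhere. For the last 24 hours the wells held IFN-gamma at 100 ng/ml or PBS as vehicle.

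The 8 groups of 3 libraries were Ifngr1-KO in ULA culture with IFN-gamma or with PBS, Ifngr1-KO in adherent culture with IFN-gamma or with PBS, and the same 4 combinations of sgNTC cells. The labels number the libraries of a group as biological replicates without saying how the cultures were separated, so the p-values measure the spread between those libraries. Each genotype is 1 line, and the labels do not say whether it is 1 clone. Dead cells were taken out of ULA wells before extraction, a step not described for adherent wells. A difference between cultures and this step cannot be told apart, nor can a difference between genotypes and any other difference between the lines.

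NF-kappa-B is a family of dimeric transcription factors. In resting cells the dimers are held in the cytoplasm by inhibitor proteins, chiefly the product of Nfkbia, and signals from receptors for TNF, interleukin-1 or bacterial products lead to destruction of the inhibitor and entry of the dimer into the nucleus. Rela with the processed product of Nfkb1 forms the usual dimer of this classical route, while Relb with the processed product of Nfkb2 serves the slower alternative route. Many genes of the pathway, Nfkbia, Nfkb2, Relb, Birc3, Icam1 and Tnfaip2 among them, are themselves known targets, so that their RNA is often read as a sign of activity. RNA counts do not measure the processing, binding or nuclear entry of the proteins. IFN-gamma signals through a receptor and route of its own, and Icam1 is a textbook gene of both routes.

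Promoter sequences are shown for 5 of the genes, those in which an NF-kappa-B or IFN-gamma motif was matched. RefSeq windows of 300 bases on GRCm38.p6, from 250 bases before to 50 after a start site, were matched by symbol for 7 of the 9 genes (not Nfkb1 and Relb). Each is printed on its gene's strand, with capitals for matches to the kappa-B consensus or, in Icam1 and the first match in Nfkb2, to the gamma-activated sequence TTCNNNGAA.
Nfkb2, chr19:46304487-46304786, plus strand: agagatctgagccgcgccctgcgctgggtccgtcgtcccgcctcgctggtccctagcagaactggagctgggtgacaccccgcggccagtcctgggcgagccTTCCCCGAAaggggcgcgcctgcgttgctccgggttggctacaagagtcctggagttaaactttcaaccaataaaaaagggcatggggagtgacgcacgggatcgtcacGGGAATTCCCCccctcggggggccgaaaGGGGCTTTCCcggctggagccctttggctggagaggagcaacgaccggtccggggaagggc
Nfkbia, chr12:55492598-55492897, minus strand: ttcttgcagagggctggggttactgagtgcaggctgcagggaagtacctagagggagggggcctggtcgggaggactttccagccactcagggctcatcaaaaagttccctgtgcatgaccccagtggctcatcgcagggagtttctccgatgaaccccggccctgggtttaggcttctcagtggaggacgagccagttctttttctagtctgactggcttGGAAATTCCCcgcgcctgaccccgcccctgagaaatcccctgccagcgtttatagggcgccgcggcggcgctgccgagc
Bcl3, chr7:19822706-19823005, minus strand: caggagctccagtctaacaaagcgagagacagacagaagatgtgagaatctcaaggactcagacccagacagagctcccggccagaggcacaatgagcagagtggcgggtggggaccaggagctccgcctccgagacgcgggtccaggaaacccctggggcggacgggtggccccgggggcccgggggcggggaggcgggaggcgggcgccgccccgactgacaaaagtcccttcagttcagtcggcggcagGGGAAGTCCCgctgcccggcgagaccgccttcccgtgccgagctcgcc
Icam1, chr9:21015690-21015989, plus strand: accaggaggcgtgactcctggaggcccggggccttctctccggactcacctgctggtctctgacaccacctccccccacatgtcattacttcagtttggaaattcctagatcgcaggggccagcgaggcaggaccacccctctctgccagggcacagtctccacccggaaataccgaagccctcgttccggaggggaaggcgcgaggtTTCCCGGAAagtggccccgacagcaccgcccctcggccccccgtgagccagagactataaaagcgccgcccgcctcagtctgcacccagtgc
Tnfaip2, chr12:111442411-111442710, plus strand: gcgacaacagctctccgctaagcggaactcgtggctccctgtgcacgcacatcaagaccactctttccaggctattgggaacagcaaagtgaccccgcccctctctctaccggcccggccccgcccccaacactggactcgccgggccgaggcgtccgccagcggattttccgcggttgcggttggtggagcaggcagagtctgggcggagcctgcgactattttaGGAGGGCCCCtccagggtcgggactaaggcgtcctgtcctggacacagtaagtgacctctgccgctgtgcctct
The kappa-B consensus, searched on both strands, was matched in 4 of the 7 genes, Nfkb2, Nfkbia, Bcl3 and Tnfaip2, and in 8.46% of 32851 windows of the same length in the mouse genome. For this and the other motifs a gene counted if any of its windows matched. The 7 genes had 9 windows, 3 of them of Nfkb2, so shares of genes and of windows are unlike measures. In Nfkbia it lies 29 to 20 bases before the start site, in Tnfaip2 24 to 15 bases before it and in Bcl3 at bases 3 to 12 after it. In Nfkb2 matches that overlap each other span bases 39 to 29 before the first of 3 start sites, and another covers bases 11 to 2 before it. The windows at its other start sites, not printed, hold kappa-B matches too. TTCNNNGAA was matched in Nfkb2 and Icam1, and in 8.3% of all windows. In Icam1 it reads TTCCCGGAA, at 42 to 34 bases before the start. The core of the interferon-stimulated response element was matched in 0 of the 7 genes and in 3.44% of all windows. A match is a description of these letters and not a shown binding site.

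The genes lie on 5 chromosomes of GRCm38, and exonic overlap with a neighbour touches 4 of them. Reads were counted without strand, so in shared bases reads of a partner on the opposite strand could not be told apart by strand. Bcl3 (chr7:19808462-19822770, minus strand) shares 161 exonic bases with Gm16175, Icam1 (chr9:21015985-21028817, plus strand) 511 bases with Gm47079, Tnfaip2 (chr12:111442469-111455018, plus strand) 314 bases with Gm40578, and Nfkb2 (chr19:46304737-46312090, plus strand) 4 bases with Psd. The values of the first 3 are less certain for that reason. Relb (chr7:19606217-19629438, minus strand) lies 179 kb from Bcl3. The others are Nfkb1 (chr3:135584655-135691547, minus strand), Birc3 (chr9:7848699-7873186, minus strand), Nfkbia (chr12:55489410-55492647, minus strand) and Rela (chr19:5637483-5648130, plus strand).

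Libraries held 33494774 to 63154942 counts, with each mate of a read pair counted, and every one of the 9 genes had at least 157 counts in every library. Within a group, libraries stood 0.431 to 0.61 apart (root mean square of log2 CPM differences to the other libraries of the group, over tested genes). The largest distance was that of the adherent Ifngr1-KO PBS replicate 3 library. Ifngr1 itself checked the labels, at 13.3 to 17 counts per 1000000 (CPM) in the 12 Ifngr1-KO libraries and 31.7 to 48.1 CPM in the 12 sgNTC libraries. Of the markers of ovarian surface epithelium, Krt8, Krt18, Krt19, Msln and Wt1 stood at 125 to 2127 CPM in all libraries, while Krt7 (at most 0.513 CPM) and Upk3b (0.105 to 8.6 CPM) were low. Of the markers of other cell types, Cd3e, Nkg7 and Thy1 had no count in any library and Ptprc, Adgre1, Lyz2 and Itgam stayed at or below 0.149 CPM. Dcn (15.2 to 98.8 CPM), Cd68 (2 to 23.4 CPM) and Pecam1 (0.319 to 5.2 CPM) had counts in every library. The remaining markers stayed at or below 0.611 CPM.

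Levels between genes were compared as CPM per kb of exon. Among PBS groups Tnfaip2, a TNF-induced protein that helps form membrane extensions, was the most abundant of the 9 in adherent cells, at 82.7 ± 2.41 CPM per kb in Ifngr1-KO and 92.8 ± 0.884 CPM per kb in sgNTC cells (SD, n = 3 each). In ULA cells it stood at 25.1 ± 0.799 CPM per kb in Ifngr1-KO and 15.4 ± 0.454 CPM per kb in sgNTC cells. Rela and Nfkb2 came next among adherent cells and were highest among ULA cells. Rela, the subunit with a strong activation domain, had 49 ± 0.539 (Ifngr1-KO, ULA), 34.3 ± 1.29 (Ifngr1-KO, adherent), 51.6 ± 1.4 (sgNTC, ULA) and 40.6 ± 1.97 CPM per kb (sgNTC, adherent). Per kb, Nfkb1 and Relb were less abundant at 6.82 to 9.98 CPM per kb as PBS group means, and Icam1 and Birc3 lay between 2.74 and 4.74 CPM per kb. The length takes in all annotated exons, 12061 bases for Nfkb1, 3885 for Relb and 2716 for Rela. Without division by length, PBS group means were 92.8 to 120.4 CPM for Nfkb1, 26.5 to 32.4 for Relb and 93.2 to 140.1 for Rela. The place of Nfkb1 among the 9 thus depends on this length. The RNA of the inhibitor gene Nfkbia relative to that of Rela, per exon length, was 0.562 ± 0.0268 in ULA and 0.305 ± 0.0269 in adherent Ifngr1-KO cells with PBS. In sgNTC cells with PBS this ratio was 0.504 ± 0.0259 in ULA and 0.27 ± 0.0297 in adherent culture.

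**Figure D1:**
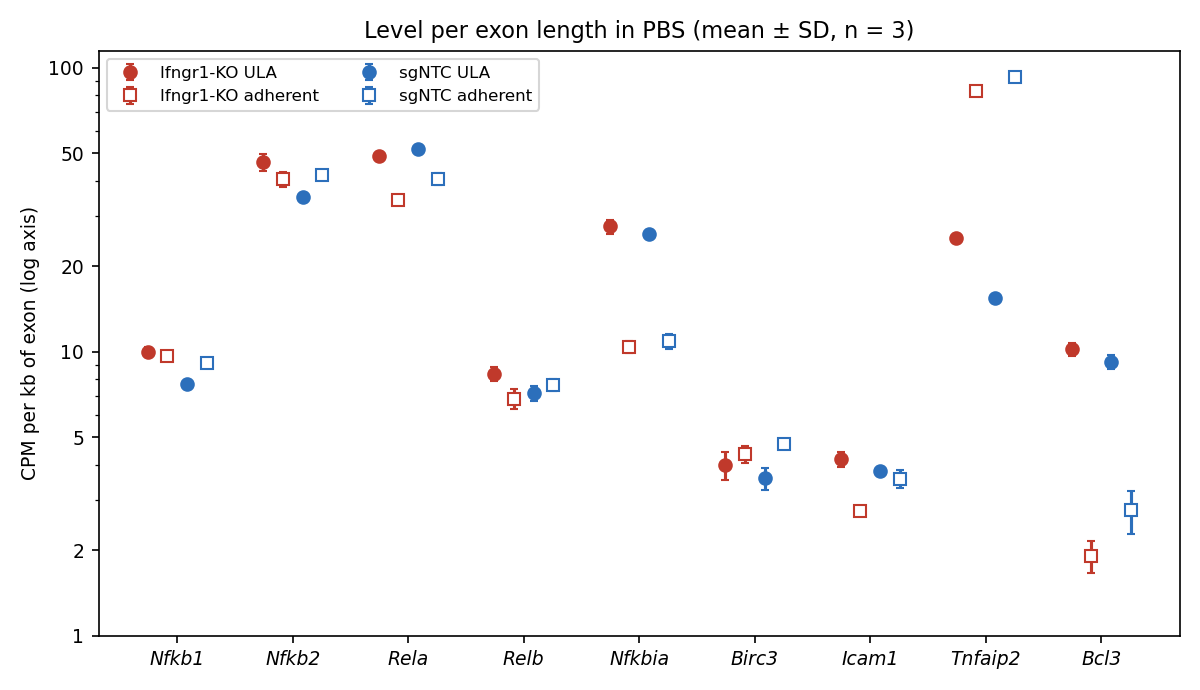
Level of each gene with PBS in CPM per kb of exon (log axis), as mean with SD bars over 3 libraries, filled circles for ULA and open squares for adherent culture, red for Ifngr1-KO and blue for sgNTC. Tnfaip2 lies at 25.1 and 15.4 CPM per kb in ULA cells and at 82.7 and 92.8 CPM per kb in adherent cells (Ifngr1-KO and sgNTC), while Nfkbia and Bcl3 lie higher in ULA cells of both lines.

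Whether IFN-gamma moved these genes was asked in each line and culture. None of the 9 passed edgeR's quasi-likelihood test at a Benjamini-Hochberg adjusted p under 0.05 in any of the 4 settings, the receptor-bearing sgNTC cells included. The share of all tested genes that passed was 0% in ULA and 0.00684% (1 gene) in adherent Ifngr1-KO cells. It was 2.05% in ULA sgNTC cells (1.31% higher and 0.739% lower) and 0.315% in adherent sgNTC cells (0.294% higher and 0.0205% lower). With so few genes moved anywhere, 0 of 9 is near what all genes gave. DESeq2 also called 0 of the 9 in each setting. At an unadjusted p under 0.05 stood 0 of the 9 in ULA and 5 (Nfkb1, Rela, Nfkbia, Icam1 and Bcl3) in adherent Ifngr1-KO cells. The shares of all tested genes were 7.54% (1103 genes) and 8.31%. In sgNTC cells 2 of the 9 had such a p in ULA and 1 in adherent culture, beside 13.2% and 7.32% of all tested genes. Over all genes DESeq2 called 1 in ULA and 25 in adherent Ifngr1-KO cells, and 482 in ULA and 83 in adherent sgNTC cells.

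Irf1 gave a check of the treatment in the same libraries. It encodes a transcription factor, is a direct IFN-gamma target and is also counted among NF-kappa-B targets. In Ifngr1-KO cells its log2 fold changes were -0.01 (95% interval -0.19 to 0.18) in ULA and 0.09 (-0.10 to 0.28) in adherent culture. In ULA sgNTC cells it averaged 131 ± 26.3 CPM with IFN-gamma and 48.4 ± 2.07 CPM with PBS (SD, n = 3 each). That was a log2 fold change of 1.44 ± 0.09 (SE, edgeR adjusted p = 6.21e-11). In adherent sgNTC cells Irf1 averaged 74.5 ± 6.09 CPM with IFN-gamma and 47.6 ± 3.04 CPM with PBS, a rise of 0.65 ± 0.09 (adjusted p = 2.46e-04).

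Icam1, an adhesion molecule that binds leukocyte integrins, had 18.7, 16.6 and 15 CPM with IFN-gamma against 17.1, 16.3 and 16.4 CPM with PBS in ULA sgNTC cells. In adherent sgNTC cells it had 15.1, 18 and 15.6 CPM with IFN-gamma against 14.5, 15.4 and 16.7 CPM with PBS. The libraries overlapped in both cultures. The log2 fold changes were 0.01 (95% interval -0.18 to 0.21) and 0.06 (-0.14 to 0.26), so that at this depth a rise of Icam1 beyond 0.26 on the log2 scale lies outside both intervals. The upper bound over all 9 genes in sgNTC cells was 0.36 in ULA culture, for Birc3, a 1.28-fold rise, and 0.44 in adherent culture, for Bcl3, a 1.35-fold rise. In adherent Ifngr1-KO cells Icam1 had 13.8, 14.4 and 14.6 CPM with IFN-gamma against 12, 11.9 and 11.9 CPM with PBS, without overlap. It did not pass there (0.25 ± 0.10, adjusted p = 0.528) or in ULA Ifngr1-KO cells, where libraries overlapped (0.15 ± 0.10, adjusted p = 0.77).

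Relb, the activating subunit of the alternative route, came closest to a call in ULA sgNTC cells, and downward. It had 26.7, 22 and 21.1 CPM with IFN-gamma against 29.7, 26.4 and 27.4 CPM with PBS, where the highest treated library overlapped the PBS libraries. The log2 fold change was -0.26 ± 0.09 (SE, adjusted p = 0.141). Without the first of these treated libraries it was -0.37 and passed (adjusted p = 0.0255), so this call turned on 1 library. In adherent sgNTC cells the estimate for Relb was 0.03 ± 0.09, with libraries that overlapped.

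Nfkbia, the inhibitor, had the largest estimate among the 9 in adherent cells of both lines. In adherent Ifngr1-KO cells it had 20.1, 20.9 and 21.4 CPM with IFN-gamma against 16.2, 16.4 and 17.7 CPM with PBS, without overlap (0.31 ± 0.08, adjusted p = 0.196). In adherent sgNTC cells it had 19, 20.9 and 19.8 CPM against 18.8, 16.7 and 17.2 CPM, also without overlap (0.18 ± 0.08, adjusted p = 0.643). Neither estimate for Nfkbia passed, and its estimates were -0.07 and -0.08 in ULA Ifngr1-KO and ULA sgNTC cells. Rela likewise did not pass in adherent Ifngr1-KO cells, at 106, 102 and 109.7 CPM with IFN-gamma against 95.4, 95.2 and 89.2 CPM with PBS (0.18 ± 0.05, adjusted p = 0.309). Rela in ULA sgNTC cells had 130.4, 131 and 129.7 CPM with IFN-gamma against 136, 144 and 141 CPM with PBS, which did not overlap and did not pass (-0.10 ± 0.05, adjusted p = 0.374). In adherent Ifngr1-KO cells 8 of the 9 estimates lay above 0, with a median of 0.13 against 0.01 over all tested genes. The medians of the 9 in the other settings were 0.07 in ULA Ifngr1-KO, -0.03 in ULA sgNTC and 0.03 in adherent sgNTC cells.

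**Figure D2:**
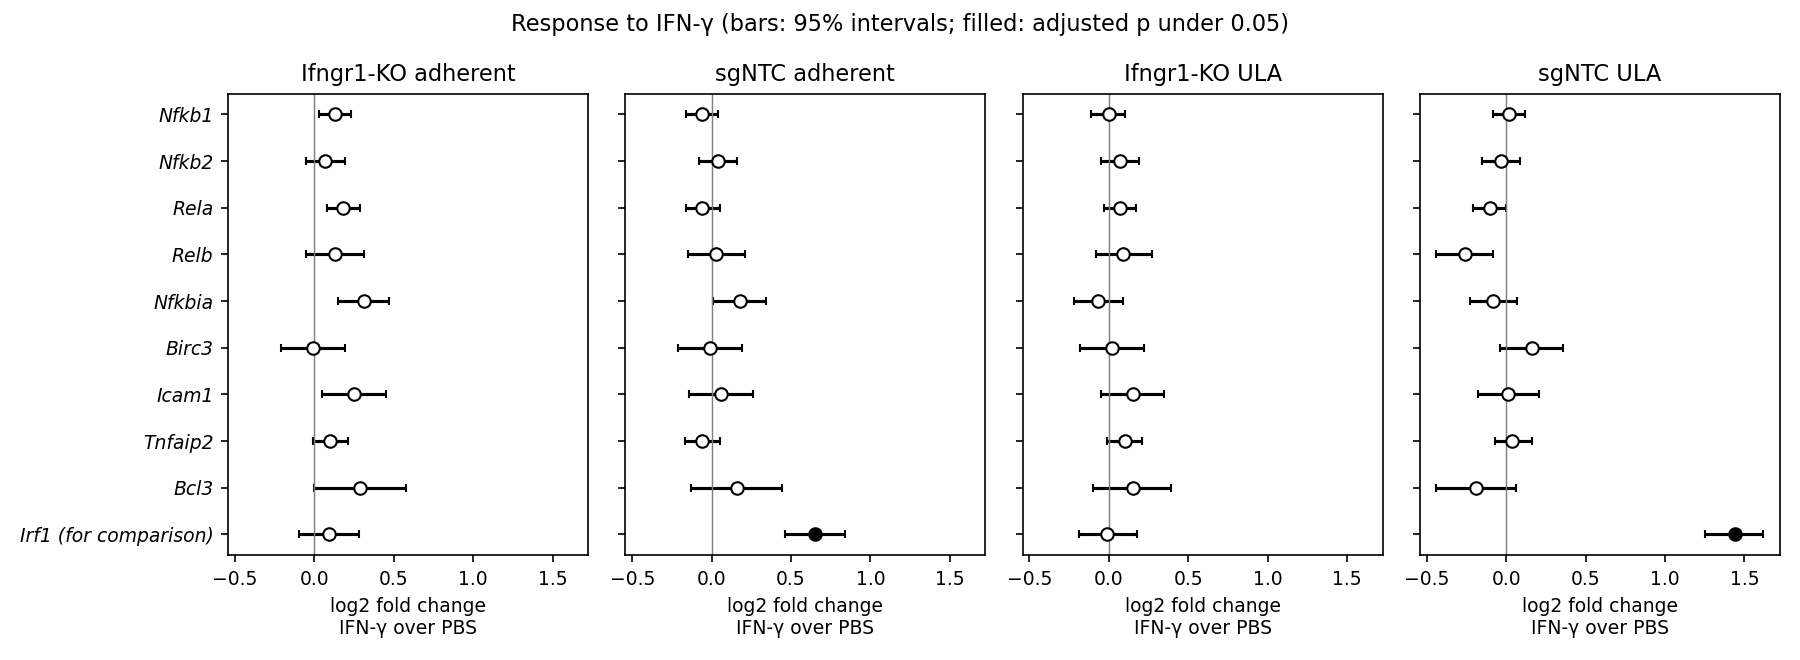
Log2 fold change of IFN-gamma over PBS for the 9 genes and Irf1 in each line and culture, with 95% intervals as bars and filled points for an adjusted p under 0.05. Only Irf1 in sgNTC cells is filled, at 1.44 in ULA and 0.65 in adherent cells, and the 9 genes lie between -0.26 and 0.31.

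Differences in the IFN-gamma response between settings were tested as interactions, and 0 of the 9 passed in any of 3. Between ULA and adherent sgNTC cells 0.0479% of all genes passed, and 2 of the 9, Relb (-0.29) and Nfkbia (-0.26), had an unadjusted p under 0.05 (difference of log2 fold changes, ULA minus adherent, adjusted p = 0.87 and 0.867), beside 5.34% of all genes. Between the lines, taken as Ifngr1-KO minus sgNTC, 1.33% of all genes passed in ULA culture (0.54% more positive and 0.793% more negative) and 0.13% in adherent culture (0.0342% and 0.0957%). In ULA culture the split was 79 more positive to 116 more negative genes, 55 to 151 with library totals and 304 to 220 with no filter on low counts. At an unadjusted p under 0.05 stood 2 of the 9 in ULA and 3 in adherent culture, beside 14.3% and 11.1% of all genes. The largest in adherent culture was Rela at 0.24 ± 0.07 (adjusted p = 0.17). Relb in ULA culture was at 0.35 ± 0.12 (adjusted p = 0.154), and at 0.47 (adjusted p = 0.0449) without the same treated ULA sgNTC replicate 1 library. DESeq2 called 0 of the 9 in each of the 3 interactions. Irf1 differed with culture in sgNTC cells (0.79 ± 0.13, adjusted p = 0.00753), a call lost when the compared groups were fitted alone (0.498) and without the adherent PBS replicate 1 or the ULA PBS replicate 3 library. It also differed between the lines in ULA culture (-1.44 ± 0.13, adjusted p = 1.83e-07), while in adherent culture that difference did not pass (-0.56 ± 0.13, adjusted p = 0.088).

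Among the other 102 pathway genes listed, 85 were tested. Of these, 1 rose in adherent sgNTC cells with IFN-gamma, Irf1, where 0.315% of all genes passed. In ULA sgNTC cells, where 2.05% of all genes passed, 4 rose and 1 fell. Besides Irf1, the pattern receptor Tlr3 averaged 24.7 ± 1.31 CPM with IFN-gamma and 15 ± 0.692 CPM with PBS (0.72 ± 0.15, adjusted p = 0.00533). Tlr2 rose by 0.91 ± 0.22 (adjusted p = 0.0165) and the macrophage growth factor Csf1 by 0.24 ± 0.06 (adjusted p = 0.0149). The TNF receptor adaptor Tradd fell by 0.38 on the log2 scale (SE 0.11, adjusted p = 0.0493). The call for Tlr3 was lost without the PBS replicate 2 library (adjusted p = 0.059) and that for Tlr2 without the treated replicate 1, the treated replicate 3, the PBS replicate 2 or the PBS replicate 3 library (up to 0.0953). Csf1 was lost without IFN-gamma replicate 1 or 2 or any PBS library (up to 0.101), and Tradd without any of the 6 libraries (up to 0.182) or with library totals. In Ifngr1-KO cells 0 of the 85 passed in either culture.

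Detachment moved most of the 9 genes, in different directions. With PBS, 7 of the 9 passed in Ifngr1-KO cells (6 higher and 1 lower in ULA culture), where 60.7% of all genes passed (29.6% higher and 31.1% lower). In sgNTC cells also 7 passed (3 higher and 4 lower), where 64.6% of all genes passed (32.5% higher and 32.1% lower). With most genes moved, 7 of 9 is no result about these genes as a set. The median change of the 9 was 0.29 in Ifngr1-KO and -0.09 in sgNTC cells, against 0.00 and 0.03 over all tested genes. In ULA cells fewer transcripts per cell and fewer cells with the transcript cannot be told apart.

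Bcl3, a nuclear relative of the inhibitors that binds dimers of the Nfkb1 and Nfkb2 products, rose most. Ifngr1-KO cells had 25.3, 23.9 and 26.6 CPM in ULA against 4.1, 5.31 and 4.8 CPM in adherent culture. sgNTC cells had 24.2, 22.1 and 22 CPM in ULA against 5.57, 7.94 and 6.96 CPM in adherent culture. Every ULA library of either line lay above every adherent library. The log2 fold changes were 2.41 ± 0.14 (SE, edgeR adjusted p = 3.97e-17), a 5.32-fold rise, in Ifngr1-KO cells and 1.75 ± 0.13 (adjusted p = 6.11e-14), a 3.37-fold rise, in sgNTC cells.

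Nfkbia rose in both lines as well. Ifngr1-KO cells had 42.4, 43.6 and 47.2 CPM in ULA against 16.2, 16.4 and 17.7 CPM in adherent culture, and sgNTC cells 43, 42 and 40.5 CPM against 18.8, 16.7 and 17.2 CPM. No ULA library overlapped an adherent one. The log2 fold changes were 1.40 ± 0.08 (adjusted p = 2.23e-17) and 1.25 ± 0.08 (adjusted p = 3.28e-16). The promoter windows of both Nfkbia and Bcl3, printed above, hold a kappa-B match, as do those of Tnfaip2 and Nfkb2. Any part of these motifs in the changes was not tested.

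Tnfaip2 fell most. Ifngr1-KO cells had 121, 129 and 125 CPM in ULA against 402, 425 and 409.9 CPM in adherent culture, a log2 fold change of -1.72 ± 0.05 (adjusted p = 4.27e-24). sgNTC cells had 79.4, 75.6 and 75.4 CPM in ULA against 462, 467 and 458 CPM in adherent culture (-2.59 ± 0.05, adjusted p = 5.74e-29). The ULA level was 3.29-fold lower in Ifngr1-KO and 6.02-fold lower in sgNTC cells, with no overlap between cultures in either line.

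Rela rose moderately in both lines, to 131, 134 and 134 CPM in ULA Ifngr1-KO cells, against 95.4, 95.2 and 89.2 CPM in adherent ones (0.51 ± 0.05, adjusted p = 7.21e-11). In sgNTC cells it had 136, 144 and 141 CPM in ULA against 105, 115 and 110.2 CPM in adherent culture (0.35 ± 0.05, adjusted p = 2.36e-07). It was the only subunit of the 4 that rose in both lines. Rel, the remaining subunit gene of the family, fell by 0.42 on the log2 scale in Ifngr1-KO and by 0.64 in sgNTC cells (SE 0.05 each, adjusted p = 3.67e-08 and 1.25e-12).

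The other subunits changed differently in the lines. Nfkb2, the precursor of the alternative route, had 141, 157 and 160.4 CPM in ULA against 124, 139 and 136 CPM in adherent Ifngr1-KO cells, a rise of 0.20 ± 0.06 (adjusted p = 0.00324). In sgNTC cells it fell, with 114, 115 and 116 CPM in ULA against 132, 143 and 139 CPM in adherent culture (-0.26 ± 0.06, adjusted p = 2.19e-04). Neither pair of groups overlapped. Nfkb1, the precursor of the classical partner of Rela, had 117, 126 and 119 CPM in ULA against 114, 115 and 119.7 CPM in adherent Ifngr1-KO cells and did not pass (0.05 ± 0.05, adjusted p = 0.386). In sgNTC cells it fell to 94.1, 90.7 and 93.7 CPM in ULA, against 114, 110.2 and 107 CPM in adherent culture (-0.25 ± 0.05, adjusted p = 5.32e-05). Relb had 30.6, 34.2 and 32.3 CPM in ULA against 24.5, 28.7 and 26.3 CPM in adherent Ifngr1-KO cells, a rise (0.29 ± 0.09, adjusted p = 0.00482). Its sgNTC values of 29.7, 26.4 and 27.4 CPM in ULA and 29.5, 28.3 and 31.3 CPM in adherent culture overlapped (-0.09 ± 0.09, adjusted p = 0.359).

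Of the remaining targets, Icam1 rose in Ifngr1-KO cells, which had 19.4, 17.6 and 17.6 CPM in ULA against 12, 11.9 and 11.9 CPM in adherent culture (0.61 ± 0.10, adjusted p = 2.26e-06). In sgNTC cells its 17.1, 16.3 and 16.4 CPM in ULA overlapped the 14.5, 15.4 and 16.7 CPM in adherent culture (0.10 ± 0.10, adjusted p = 0.377). Birc3 encodes a ubiquitin ligase that acts at TNF receptors and restrains cell death. It had 18.9, 18.4 and 22.5 CPM in ULA against 21.5, 23.6 and 20.5 CPM in adherent Ifngr1-KO cells and did not pass (-0.13 ± 0.10, adjusted p = 0.252). In sgNTC cells it fell to 18.8, 18.9 and 16.1 CPM in ULA, against 24.2, 23.4 and 23.6 CPM in adherent culture (-0.40 ± 0.10, adjusted p = 5.53e-04).

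**Figure D3:**
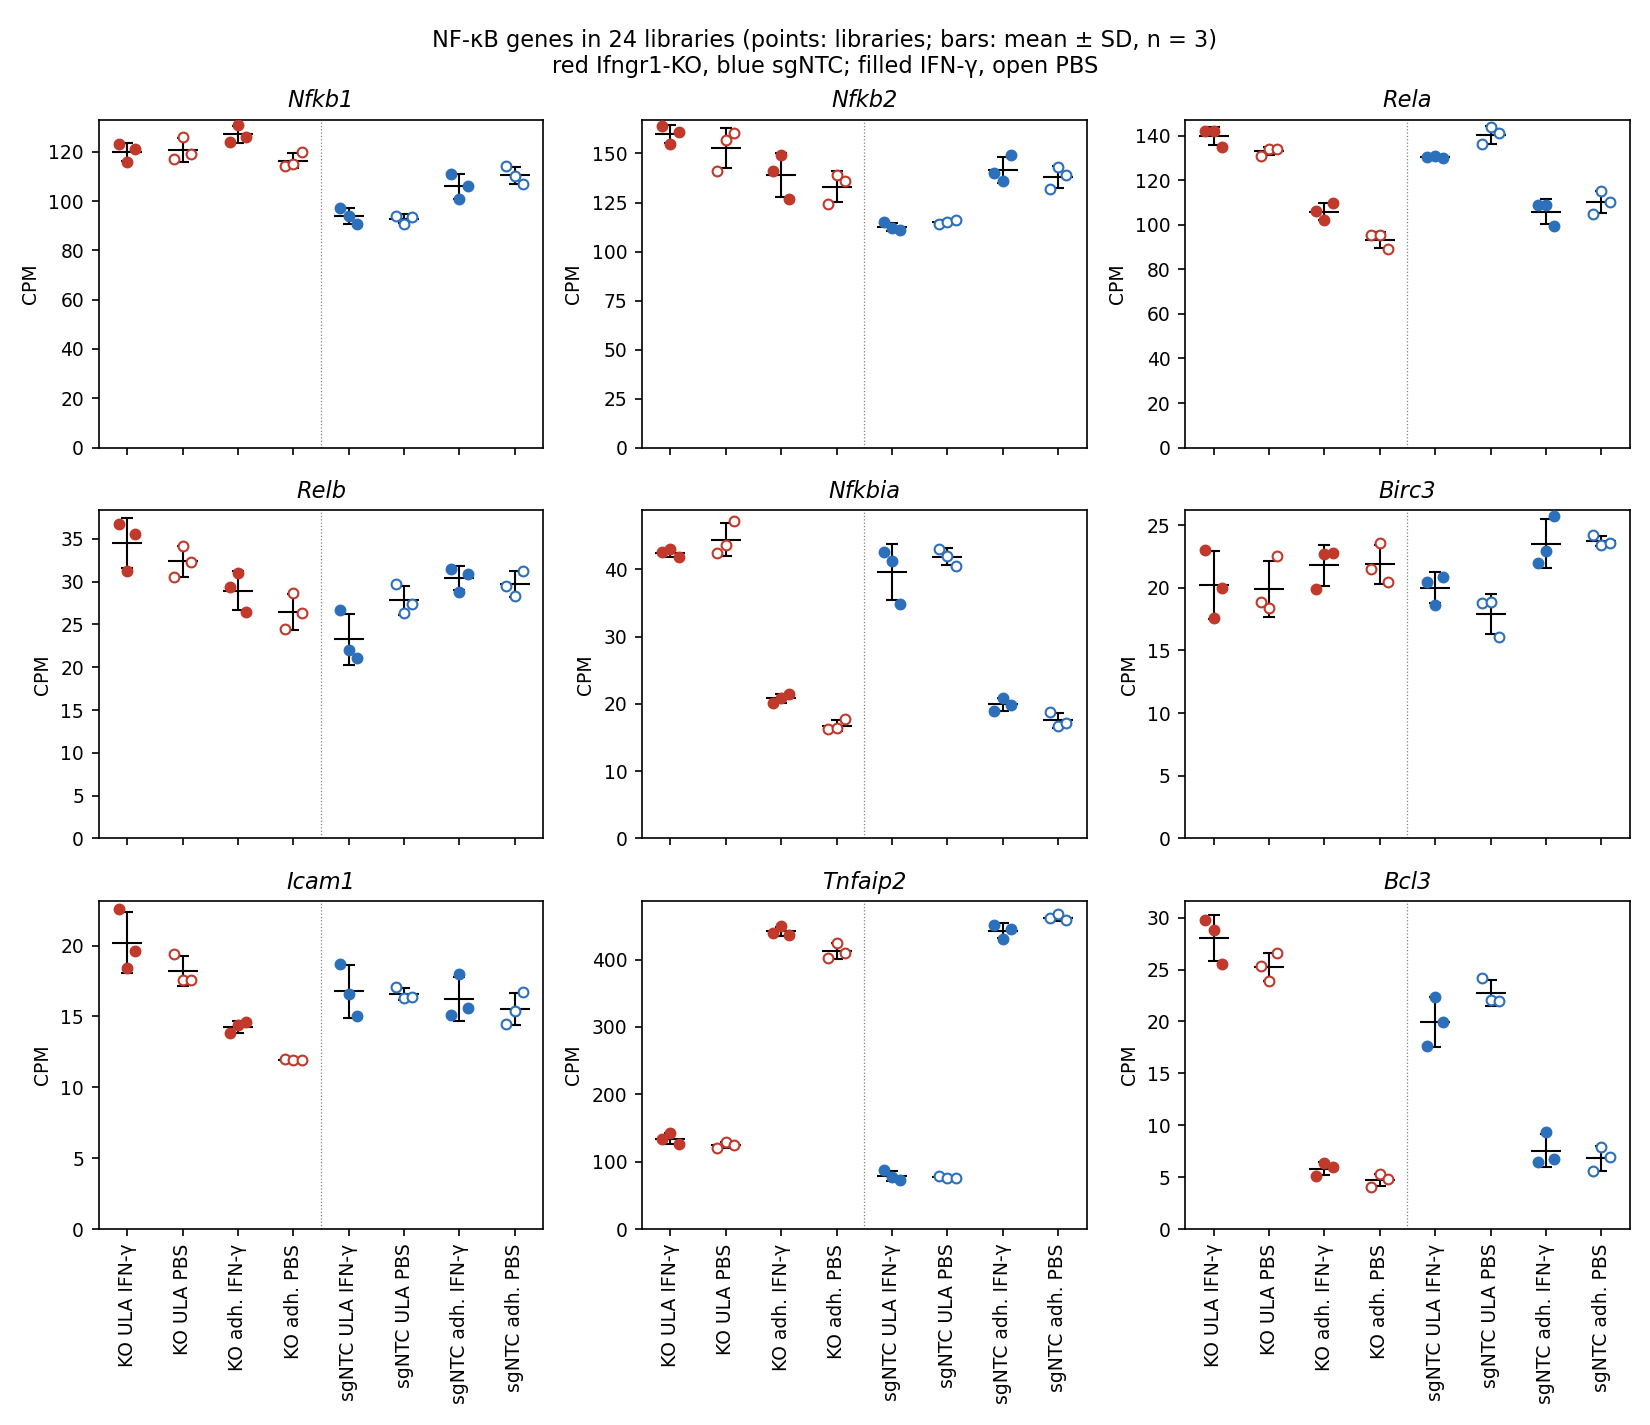
Level of each gene in CPM in all 24 libraries, points for libraries and bars for mean ± SD over 3, with Ifngr1-KO in red left of sgNTC in blue, filled points for IFN-gamma and open for PBS. Bcl3 and Nfkbia are high and Tnfaip2 is low in every ULA library. No filled and open pair differs at an adjusted p under 0.05 (edgeR), though some pairs do not overlap, such as Nfkbia in adherent cells of both lines.

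With IFN-gamma present in both cultures, detachment of sgNTC cells moved 8 of the 9 genes (3 higher and 5 lower), where 64.6% of all genes passed (32.6% higher and 32% lower). Bcl3 (1.41 ± 0.13, adjusted p = 1.65e-11), Nfkbia (0.99 ± 0.08, 1.63e-13) and Rela (0.30 ± 0.05, 3.03e-06) rose. Tnfaip2 fell, with 87.4, 77.8 and 72.4 CPM in ULA against 452, 431 and 446 CPM in adherent culture (-2.48 ± 0.05, adjusted p = 2.26e-28). Relb (-0.38 ± 0.09, adjusted p = 3.00e-04) and Nfkb2 (-0.33 ± 0.06, 7.79e-06) fell too. The falls of Nfkb1 (-0.17, adjusted p = 0.00324) and Birc3 (-0.23, 0.0402) were lost when counts were scaled by library totals (adjusted p = 0.355 and 0.328), and that of Birc3 also by DESeq2 (0.0701), with its size factors (0.0721), with halved counts (0.051) and without any of 4 libraries. Those were adherent replicates 2 and 3 and ULA replicates 1 and 2 of sgNTC with IFN-gamma, without which its adjusted p was 0.077, 0.292, 0.0578 and 0.146. The 2 sets of sgNTC libraries are different ones, with PBS and with IFN-gamma.

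Markers moved with detachment too. The summed level of the 7 epithelial markers was 4108 to 4265 CPM in ULA against 1726 to 2026 CPM in adherent Ifngr1-KO cells with PBS, and 2760.3 to 2817 CPM in ULA against 2014 to 2177 CPM in adherent sgNTC cells. The 5 fibroblast and pericyte markers, with Dcn at 15.2 to 98.8 CPM and each of the others at or below 0.507 CPM, summed to 93.7 to 98.1 CPM in ULA against 16.6 to 18.4 CPM in adherent Ifngr1-KO cells, and to 96.5 to 99.1 CPM in ULA against 44.2 to 54.8 CPM in adherent sgNTC cells. The 6 macrophage markers, of which Cd68 alone exceeded 1 CPM, summed to 16.8 to 21.3 CPM in ULA against 5.62 to 7.65 CPM in adherent Ifngr1-KO cells. In sgNTC cells they summed to 6.77 to 7.34 CPM in ULA against 3.07 to 3.52 CPM in adherent culture. The 5 endothelial markers summed to 1.32 to 2.37 CPM in ULA against 0.47 to 0.745 CPM in adherent Ifngr1-KO cells, and to 2.83 to 3.65 CPM in ULA against 0.484 to 0.873 CPM in adherent sgNTC cells. The 6 lymphocyte markers stayed at or below 0.644 CPM in sum in every library. The part of these shifts in the results was not tested.

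Among the other pathway genes, detachment with PBS moved genes of every list. Over all genes 60.7% passed in Ifngr1-KO cells (29.6% higher and 31.1% lower) and 64.6% in sgNTC cells (32.5% higher and 32.1% lower). Where most genes moved, such counts are no result about the lists as sets. Of 11 other inhibitors tested, 3 rose and 6 fell in Ifngr1-KO and 2 rose and 6 fell in sgNTC cells, with medians of -0.32 and -0.33. Tnip1, a binding partner of the inhibitor protein A20, rose by 1.31 ± 0.06 (adjusted p = 3.01e-19) in Ifngr1-KO and 0.75 ± 0.06 (adjusted p = 7.21e-13) in sgNTC cells. The deubiquitinase Cyld fell by 0.71 and 0.98 on the log2 scale (SE 0.06 each, adjusted p = 4.85e-13 and 5.85e-17). Of 26 kinases and adaptors 7 rose and 6 fell in Ifngr1-KO and 8 rose and 11 fell in sgNTC cells, with medians of -0.01 and -0.02. The inhibitor kinase subunit Chuk fell in both (-0.56 ± 0.06 and -0.89 ± 0.06), and Ikbkg, the regulatory subunit of that kinase, averaged 162 ± 3.78 CPM in ULA and 78.8 ± 0.943 CPM in adherent sgNTC cells (1.04 ± 0.07, adjusted p = 2.11e-15). Of 12 receptors 6 rose in each line, and 2 fell in Ifngr1-KO and 3 in sgNTC cells, with medians of 0.69 and 0.54. Il1r1, Tlr3 and Tnfrsf1a rose in both lines by 0.54 to 1.88 on the log2 scale. Of 5 ligands tested 2 rose in each line, and Il33 averaged 2.44 ± 0.899 CPM in ULA and 0.484 ± 0.52 CPM in adherent Ifngr1-KO cells (2.35 ± 0.48, adjusted p = 7.32e-05).

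The other targets did not share 1 direction on detachment. Of 31 tested, 15 rose and 7 fell in Ifngr1-KO and 15 rose and 9 fell in sgNTC cells, with medians of 0.45 and 0.36. Beside that, 29.6% of all genes rose and 31.1% fell in Ifngr1-KO cells, and 32.5% rose and 32.1% fell in sgNTC cells. Gch1, the first enzyme of tetrahydrobiopterin synthesis, rose by 1.25 ± 0.08 in Ifngr1-KO and 0.97 ± 0.08 in sgNTC cells (adjusted p = 5.08e-15 and 1.77e-12). Cflar, which blocks caspase activation at death receptors, fell by 0.78 and 0.89 on the log2 scale (SE 0.05 each, adjusted p = 1.30e-14 and 1.65e-16). The chemokine Ccl20 averaged 0.461 ± 0.17 CPM in ULA and 6.81 ± 1.2 CPM in adherent sgNTC cells (-3.93 ± 0.28, adjusted p = 8.06e-15). In Ifngr1-KO cells the cytokine Lif rose by 1.45 ± 0.11 and the hyaluronan receptor Cd44 by 1.43 ± 0.05 (adjusted p = 1.34e-13 and 4.30e-22).

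Whether the lines differed in the change on detachment was tested as an interaction, Ifngr1-KO minus sgNTC, with PBS. Of the 9 genes 6 passed, each with a more positive change in Ifngr1-KO cells, against 27.8% of all genes in either direction and 16.6% in this one. By this reading 6 of 9 is a larger share than all genes gave, though the members were chosen with earlier results of these data known. With library totals 5 of the 9 passed, and the split of all called genes was 1706 more positive to 2356 more negative, against 2426 to 1642 with TMM scaling. All 9 estimates lay above 0, with a median of 0.38 against 0.01 over all tested genes. The contrast shares its libraries with the comparisons above.

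The difference was 0.87 ± 0.08 (adjusted p = 7.68e-11) for Tnfaip2, whose fall was smaller in Ifngr1-KO cells. It was 0.66 ± 0.19 (adjusted p = 0.00746) for Bcl3, whose rise was larger. Icam1 (0.51 ± 0.14, adjusted p = 0.00562) and Relb (0.38 ± 0.12, adjusted p = 0.0188) rose in Ifngr1-KO cells and had not passed in sgNTC cells. With library totals Relb did not pass (0.29, adjusted p = 0.102). Nfkb2 (0.46 ± 0.08, adjusted p = 5.13e-05) went opposite ways in the 2 lines, and Nfkb1 (0.30 ± 0.07, adjusted p = 0.0014) fell in sgNTC cells. For Rela (0.17 ± 0.07, adjusted p = 0.0815), Birc3 (0.27 ± 0.14, 0.157) and Nfkbia (0.15 ± 0.11, 0.319) the difference did not pass, and its 95% intervals reached 0.31, 0.55 and 0.38. Without the adherent sgNTC PBS replicate 1 library Rela passed (0.20, adjusted p = 0.049). Of the other pathway genes, 3 of 11 inhibitors, 5 of 26 kinases and adaptors, 4 of 12 receptors and 11 of 31 targets had a more positive change in Ifngr1-KO cells. A more negative one was called for 0 inhibitors, 4 kinases and adaptors, 0 receptors and 6 targets, and the medians of the 4 lists were 0.09, 0.06, 0.15 and 0.27. Over all genes 16.6% had a more positive and 11.2% a more negative change.

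**Figure D4:**
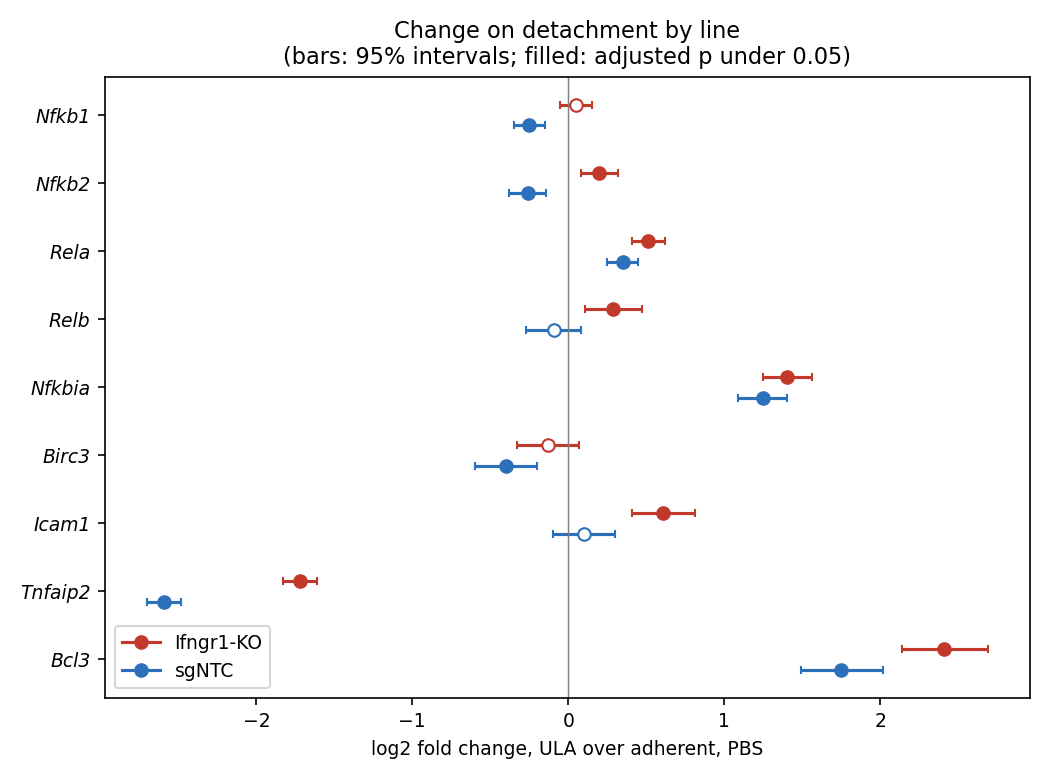
Log2 fold change of ULA over adherent culture with PBS for the 9 genes, red for Ifngr1-KO above blue for sgNTC, with 95% intervals as bars and filled points for an adjusted p under 0.05. Every red point lies to the right of the blue point of its gene, by 0.15 for Nfkbia up to 0.87 for Tnfaip2.

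The lines themselves were compared in each culture with PBS. In ULA culture 4 of the 9 genes were higher in Ifngr1-KO cells and 0 lower, where 50.1% of all genes passed (24.5% higher and 25.6% lower). In adherent culture 4 were lower and 0 higher, where 43.9% passed (20.1% higher and 23.9% lower). With library totals the split of all called genes in adherent culture turned, to 3623 higher and 3027 lower against 2932 and 3489 with TMM scaling. The medians were 0.15 in ULA and -0.16 in adherent culture, against -0.02 and -0.01 over all tested genes. Marker sums given above also differed between the lines without overlap. In ULA culture the epithelial and macrophage sums were higher and the endothelial sum was lower in Ifngr1-KO cells. In adherent culture the macrophage sum was higher and the fibroblast and pericyte sum was lower, at 16.6 to 18.4 CPM in Ifngr1-KO against 44.2 to 54.8 CPM in sgNTC cells. In these results the part of the markers was not tested.

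In ULA culture Tnfaip2 was 1.63-fold higher in Ifngr1-KO cells, at 121, 129 and 125 CPM against 79.4, 75.6 and 75.4 CPM in sgNTC cells (log2 0.71 ± 0.05, adjusted p = 6.16e-13). Nfkb2 had 141, 157 and 160.4 CPM against 114, 115 and 116 CPM (0.41 ± 0.06, adjusted p = 3.58e-07). Nfkb1 had 117, 126 and 119 CPM against 94.1, 90.7 and 93.7 CPM (0.37 ± 0.05, adjusted p = 1.09e-07). These genes and Relb showed no overlap between the lines. Relb was also higher (0.22 ± 0.09, adjusted p = 0.036), but lost the call with library totals (adjusted p = 0.112), without the Ifngr1-KO replicate 2 library (0.0766) or without the sgNTC replicate 2 library (0.0669). Rela (-0.07 ± 0.05, adjusted p = 0.23) and Icam1 (0.13 ± 0.10, adjusted p = 0.267) did not overlap either, but did not pass.

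In adherent culture the lower genes were Bcl3, Icam1, Rela and Tnfaip2. Icam1 had 12, 11.9 and 11.9 CPM in Ifngr1-KO cells against 14.5, 15.4 and 16.7 CPM in sgNTC cells (-0.37 ± 0.10, adjusted p = 0.00253). Rela had 95.4, 95.2 and 89.2 CPM against 105, 115 and 110.2 CPM (-0.24 ± 0.05, adjusted p = 2.18e-04). Neither gene's groups overlapped, nor did those of Bcl3 and Tnfaip2. Bcl3 had 4.1, 5.31 and 4.8 CPM against 5.57, 7.94 and 6.96 CPM (-0.51 ± 0.14, adjusted p = 0.00387), and did not pass without the sgNTC replicate 2 library (-0.37, adjusted p = 0.0571). Tnfaip2 differed by -0.17 ± 0.05 (adjusted p = 0.0112), a call lost with library totals (adjusted p = 0.0818) or without the Ifngr1-KO replicate 1 or 3 or sgNTC replicate 2 or 3 library (adjusted p = 0.0847, 0.0509, 0.0648 and 0.053). Without the sgNTC replicate 2 library 2 of the 9 passed. With library totals Nfkb1 was called higher (0.13, adjusted p = 0.0434). The lines were not tested against each other with IFN-gamma. There, adherent Ifngr1-KO and sgNTC cells averaged 106 and 106 CPM for Rela and 442 and 443 CPM for Tnfaip2, with libraries that overlapped. Icam1 averaged 14.3 and 16.2 CPM and Bcl3 5.82 and 7.56 CPM, without overlap.

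The other pathway genes differed between the lines in both directions. Of the 12 receptors, 4 were higher and 4 lower in Ifngr1-KO cells in ULA culture, and 1 was higher and 6 lower in adherent culture. Of the 31 other targets, 12 were higher and 7 lower in ULA culture, and 5 higher and 9 lower in adherent culture. Over all genes 50.1% differed in ULA culture (24.5% higher and 25.6% lower) and 43.9% in adherent culture (20.1% higher and 23.9% lower). The interleukin-1 receptor gene Il1r1 averaged 27.1 ± 1.72 CPM in Ifngr1-KO and 51.8 ± 0.895 CPM in sgNTC cells in ULA culture (-0.93 ± 0.08, adjusted p = 2.69e-12), and 14.1 ± 0.823 against 29.7 ± 2.32 CPM in adherent culture (-1.08 ± 0.08, adjusted p = 4.21e-13). Its co-receptor Il1rap was lower by 1.16 and 1.24 on the log2 scale. The kinase Ikbkb, which marks the inhibitor for destruction, was at -0.56 ± 0.07 in ULA and -0.66 ± 0.07 in adherent culture (adjusted p = 1.87e-08 and 9.31e-10). Cd44 was higher, at 552 ± 9.83 CPM in Ifngr1-KO and 189 ± 8.52 CPM in sgNTC cells in ULA culture (1.55 ± 0.05, adjusted p = 2.21e-22).

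Across the 8 groups the order of levels differed by gene. For Bcl3 the 4 ULA groups came first and overlapped at each neighbouring step, then the 4 adherent groups, which also overlapped, with a gap between. For Nfkbia the same gap stood between ULA and adherent groups, and a second gap between adherent groups with IFN-gamma and those with PBS. Tnfaip2 ran in the opposite order, with gaps between adherent sgNTC with PBS, the adherent groups with IFN-gamma, adherent Ifngr1-KO with PBS, the ULA Ifngr1-KO groups and the ULA sgNTC groups. For Nfkb1 and Nfkb2 the ULA sgNTC groups came last, below a gap, and the other 6 overlapped from step to step. For Relb and Birc3 no neighbouring groups were separated. The highest library stood above the lowest by 7.27 times for Bcl3, 6.45 times for Tnfaip2 and 2.91 times for Nfkbia, and by 1.44 to 1.89 times for the other 6 genes.

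The genes whose 8 group means of log2 CPM lay closest to those of a member were picked by Pearson correlation. Closest to Bcl3 were Efhd2, Pde10a and Palld (r = 0.998, 0.997 and 0.997), and to Tnfaip2 Siah2, Pum3 and Dnajb11 (r = 0.999 each). Closest to Nfkbia were Hist2h3c1, Tmem37 and Ephb6 (r = 0.996, 0.993 and 0.992), and to Icam1 Pxn, Wwp2 and Tns2 (r = 0.986, 0.972 and 0.966). Closest to Rela were Inf2, Ier5l and Plekhh3 (r = 0.989, 0.989 and 0.988), to Nfkb1 Ppfia1, Ganab and Myo5a (r = 0.983, 0.981 and 0.980), and to Nfkb2 Pcdh1, Kif4 and Rap1gds1 (r = 0.987, 0.981 and 0.981). Closest to Birc3 were Ifi209, Med14 and Tsg101 (r = 0.987, 0.975 and 0.974), and to Relb Pfn1, Arap1 and Ostf1 (r = 0.952, 0.951 and 0.947). The 8 means come from the same libraries for every gene, and with 8 points among 14622 genes a high r is a description only.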

How the data were processed

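Whole-number read counts per gene were deposited for each of 24 libraries. The authors made these counts with featureCounts v2.1.1, per the file headers, in paired mode without counting pairs, so each mate of a pair adds 1 count, without strand and without multi-mapped reads. The submitters' processing notes name Trimmomatic, HISAT2, SAMtools, Subread 2.1.1, DESeq2 and GRCm38. Reads whose mates are both counted are not independent, and counting error is larger than the totals of 33494774 to 63154942 would give.

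Genes were tested with edgeR 4.0.16 in R 4.3.3 (quasi-likelihood, robust, TMM scaling, filterByExpr with a minimum count of 10), which kept 14622 genes and at least 99.97% of counts. All 24 libraries entered 1 fit of 8 group means with 16 residual degrees of freedom, and p-values were Benjamini-Hochberg adjusted per comparison, with calls at an adjusted p under 0.05. There were 9 comparisons of groups and 4 interactions. Errors of log2 fold changes are standard errors and intervals are 95%. CPM is the count per 1000000 counts, scaled by TMM. Alternatives were DESeq2 1.42.0, its size factors, library totals, no filter, halved counts, a replicate block, the compared groups alone and leaving out each library. Loci are from GENCODE M21 on GRCm38 and promoters from RefSeq.

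The 9 members and the pathway lists were chosen with earlier results of these data known. All members are described. From each list of other genes up to 4 called genes with the smallest adjusted p qualified to be named per comparison, and some of these are given. Likeness was taken over tested genes that averaged 5 CPM or more in some group, without predicted gene models, and the 3 closest per member are given.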

Additional observations from a re-analysis of the deposited data

Results flagged for a closer look

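Differences in response between the lines or cultures, tested as interactions with edgeR, are collected here with no explanation. The change on detachment with PBS was more positive in Ifngr1-KO than in sgNTC cells for Tnfaip2 (0.87 on the log2 scale), Bcl3 (0.66), Icam1 (0.51), Nfkb2 (0.46), Relb (0.38) and Nfkb1 (0.30). Nfkb2 rose in Ifngr1-KO cells and fell in sgNTC cells, with libraries that did not overlap in either line.

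Among the other pathway genes the same difference was found for the protease Plau (1.57), the receptors Tnfrsf12a (1.04), Tnfrsf1b (0.68), Ltbr (0.26) and Tlr4 (0.24), and the inhibitors Nfkbie (1.01), Tnip1 (0.57) and Cyld (0.27). It was also found for Cd44 (0.98), the survival gene Bcl2l1 (0.84), the kinases Tbk1 (0.40) and Chuk (0.34), and the subunit gene Rel (0.22). With library totals the calls for Cyld (adjusted p = 0.077), Ltbr (0.102), Tlr4 (0.203) and Rel (0.214) were lost. That for Tlr4 was also lost without any of 6 single libraries (adherent Ifngr1-KO replicate 3, adherent sgNTC replicate 1, ULA Ifngr1-KO replicates 1 and 3, ULA sgNTC replicates 1 and 2), and that for Rel without any of 4 (adherent sgNTC replicates 1 and 3, ULA Ifngr1-KO replicate 2, ULA sgNTC replicate 1) or with no filter on low counts. The change was more negative in Ifngr1-KO cells for Csf1 (-1.02), Ikbkg (-0.72) and Btrc (-0.63), which encodes a subunit of the ligase that acts on phosphorylated inhibitor. At most 4 called genes per list are named here. In full, 5 kinases and adaptors and 11 targets were more positive, and 4 and 6 more negative. Over all genes 27.8% passed (16.6% more positive and 11.2% more negative).

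The response of Irf1 to IFN-gamma was larger in ULA than in adherent sgNTC cells (0.79), and in ULA culture it was smaller in Ifngr1-KO than in sgNTC cells (-1.44). The culture difference was lost when the compared groups were fitted alone (adjusted p = 0.498).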

How the results depend on the processing

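Among the 13 counts of called members, 3 moved by over 1.5 times when 1 library was left out. The count of 0 for IFN-gamma in ULA sgNTC cells ranged from 0 to 1, the count of 0 for the line difference in that response in ULA culture from 0 to 1, and the count of 4 for the lines in adherent culture from 2 to 4. Library totals moved the median of all genes by up to 0.12 on the log2 scale (detachment of sgNTC cells with IFN-gamma), and changes should be read relative to that. They gave 6 called members in place of 8 there, 3 in place of 4 for the lines in ULA culture and 5 in place of 6 for the line difference on detachment. No alternative run turned the direction of a called member. Replicate numbers did not pair the libraries (correlations of deviations -0.06 to 0.05), and the fit with a replicate block gave the same 13 counts, 6 of 9 for the line difference on detachment among them. Under the block Tradd lost its call for IFN-gamma in ULA sgNTC cells. Over all genes DESeq2 called more than edgeR with IFN-gamma: 25 in place of 1 in adherent Ifngr1-KO cells, 482 in place of 300 in ULA and 83 in place of 46 in adherent sgNTC cells, and, for the line difference in that response, 467 in place of 195 in ULA and 96 in place of 19 in adherent culture. DESeq2 called 1 in place of 0 in ULA Ifngr1-KO cells. With no filter on low counts the same 5 numbers were 31, 652, 175, 524 and 180, with 33 in place of 0 in ULA Ifngr1-KO cells and 63 in place of 7 for the culture difference in sgNTC cells. With the compared groups alone they were 101 in place of 46 in adherent sgNTC cells, 0 in place of 1 in adherent and 1 in place of 0 in ULA Ifngr1-KO cells, and 1 in place of 7 for the culture difference. Halved counts gave 10 in place of 19. With no filter the split of called genes turned in ULA sgNTC cells with IFN-gamma, to 238 higher and 414 lower from 192 and 108. For the line difference in that response in ULA culture it turned to 304 more positive and 220 more negative, from 79 and 116. In adherent sgNTC cells it kept its direction, at 141 higher and 34 lower. The cause of the changed calls was not tested. With 3 libraries a group, a difference that did not pass may still have any size within its printed interval.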
